A study of Saccharomyces cerevisiae with 24 samples.

Results

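In wild-type Saccharomyces cerevisiae, the monosome fraction of a polysome gradient was compared with input RNA, to ask which mRNAs are over- or under-represented on single ribosomes relative to the total mRNA pool. The comparison rests on 4 of the 24 libraries of the series, chosen by strain and RNA pool in the labels: 2 monosome and 2 input libraries. The cells were wild type at log phase (OD 0.6 to 0.8) and were treated with cycloheximide, which all groups of the series share. The rest of the series holds light and heavy polysomes of the same strain, labelled as the low and high polysome fractions, and all 4 pools of strains lacking RPL22A (∆RPL22A) or RPL22B (∆RPL22B), the paralogs that encode ribosomal protein Rpl22. The series design calls the libraries of a group biological duplicates, and the labels give neither the strain background nor the number of cultures behind each.

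A monosome is an mRNA that carries a single 80S ribosome, and a polysome is an mRNA that carries several. The sucrose gradient separates them by mass, and cycloheximide holds elongating ribosomes in place during extraction. Short reading frames have room for few ribosomes, and mRNAs with slow initiation, or with short upstream reading frames in the leader, are known to sit lighter in the gradient than their length alone would give. The monosome region can also hold empty 80S ribosomes, and mRNA in lighter complexes is part of input RNA but not of the monosome fraction. All values are relative to the other mRNAs of the same library, so an mRNA that is higher in monosomes takes a larger share of the monosome mRNA than of the input mRNA. A shift in how many ribosomes an mRNA holds and a shift in the share of its copies that are bound cannot be told apart in such bulk samples, nor can fewer cells that express it and less RNA per cell.

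The libraries held 3351339 and 5241664 counts in input and 9360431 and 9449589 in monosomes. Rows at the ribosomal DNA took 73.4% and 88.3% of the input counts and 83.4% and 95.9% of the monosome counts, which left 891391 and 611934 counts for all other genes in input, and 1552601 and 385464 in monosomes. Monosome replicate 2 is thus the shallowest of the 4 libraries. Across genes, the replicates correlated at r = 0.972 in input and 0.943 in monosomes, and neither correlated better with any other library of the series. The a-specific receptor gene STE2 had 1114 counts over the 4 libraries and the α-specific receptor gene STE3 had 5, as in cells of mating type a. The other a-specific genes ran from 1750 counts (MFA2) to 53 (ASG7) over these 4 libraries. The α-specific SAG1 had 55, slightly above ASG7, and MF(ALPHA)2 and MF(ALPHA)1 had 10 and 3. In the deletion strains the order of STE2 and STE3 was the opposite, with 34 and 17 counts of STE2 over 8 libraries each and 885 and 606 of STE3. As a check of the deletions, RPL22B summed to 1329 counts over 8 libraries of wild type and 0 over those of ∆RPL22B, whereas RPL22A summed to 25 in wild type, 3 in ∆RPL22A and 40 in ∆RPL22B, too few to check that label.

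Among 5 small reading frames picked for display, fold changes ranged from one of the largest rises to a value that did not pass. RPL41A and RPL41B (YDL184C and YDL133C-A) encode the same kind of tiny basic protein of the large ribosomal subunit, 25 residues long. OST4 (YDL232W) encodes a subunit of the oligosaccharyltransferase of 36 residues, and MFA2 (YNL145W) and MFA1 (YDR461W) encode precursors of the a-factor mating pheromone. CCW12 (YLR110C), a mannoprotein of the cell wall with 133 residues, is shown with them because it went the other way. The coding sequences are those of the R64 reference, the same assembly as sacCer3, 5′ to 3′, with the start and stop codons in capitals. They show how few codons separate initiation from termination in the first 5, and, for CCW12, the first 120 bases of a longer frame.
RPL41B, chrIV:221724-221801, minus strand: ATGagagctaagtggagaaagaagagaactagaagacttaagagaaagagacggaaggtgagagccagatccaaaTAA
RPL41A, chrIV:130407-130484, minus strand: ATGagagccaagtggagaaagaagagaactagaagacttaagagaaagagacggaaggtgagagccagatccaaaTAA
OST4, chrIV:38487-38597, plus strand: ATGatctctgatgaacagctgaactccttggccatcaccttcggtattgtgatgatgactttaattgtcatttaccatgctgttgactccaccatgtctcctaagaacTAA
MFA2, chrXIV:352414-352530, plus strand: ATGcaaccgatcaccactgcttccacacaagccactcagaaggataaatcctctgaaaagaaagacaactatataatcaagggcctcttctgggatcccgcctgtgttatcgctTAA
MFA1, chrIV:1385176-1385286, plus strand: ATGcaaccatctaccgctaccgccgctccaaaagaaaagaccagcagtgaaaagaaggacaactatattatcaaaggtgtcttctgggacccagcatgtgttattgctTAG
CCW12, chrXII:369979-370098, minus strand, first 120 bases: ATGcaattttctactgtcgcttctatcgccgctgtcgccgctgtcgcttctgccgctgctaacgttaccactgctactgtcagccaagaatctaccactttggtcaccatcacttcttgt
The coding sequences of RPL41A and RPL41B differ at 1 of 78 bases (98.7% identity). How the authors counted reads that match both paralogs is not known from the labels, so the split of counts between such pairs is uncertain.

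RPL41B stood at 225 and 268 CPM in the input replicates and at 6395 and 10462 CPM in monosomes. CPM values are counts outside the ribosomal DNA, brought to a common library total with TMM factors. Its monosome libraries lie far above its input libraries, a log2 fold change of 5.09 ± 0.67 (standard error; edgeR quasi-likelihood adjusted p = 2.18e-06; n = 2 libraries per group, as in all tests here). RPL41A stood at 587 and 609.7 CPM in input and at 5524 and 7761 in monosomes, a log2 fold change of 3.47 ± 0.61 (adjusted p = 7.62e-05). Both paralogs were also higher in monosomes than in the mean of light and heavy polysomes, by 3.84 for RPL41B and 2.61 for RPL41A on the log2 scale (adjusted p = 4.9e-06 and 0.00028), a contrast added after the data were seen. OST4 rose from 32.0 and 33.6 CPM to 225 and 182 (log2 2.65 ± 0.37, adjusted p = 4.22e-06). MFA2 rose from 203 and 163 CPM to 663 and 825 (log2 2.01 ± 0.35, adjusted p = 0.000104). MFA1, which also encodes a precursor of a-factor, had 123 and 109 CPM in input and 159 and 229 in monosomes, and its log2 fold change of 0.70 ± 0.31 did not pass (adjusted p = 0.0794).

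Over all 5258 genes tested, 1742 passed at an adjusted p under 0.05 (33.1%), of which 917 were higher in monosomes than in input (17.4%) and 825 lower (15.7%). An unadjusted p under 0.05 was reached by 2284 (43.4%). The median log2 fold change over all genes tested was -0.07. Leaving out 1 library lowered the count of calls to 1021 without monosome replicate 1, 1209 without monosome replicate 2, 1121 without input replicate 1 and 1150 without input replicate 2. In those fits the remaining library takes its spread from the other groups. On counts simulated for this comparison over 5258 genes, 92% of 100 genes changed 4-fold and 37% of 100 genes changed 2-fold were recovered. In that setting many 2-fold differences were missed. The changed genes were drawn from those above a minimum count, and far fewer were changed than were called here. These recovery shares therefore need not hold for the data.

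**Figure D1:**
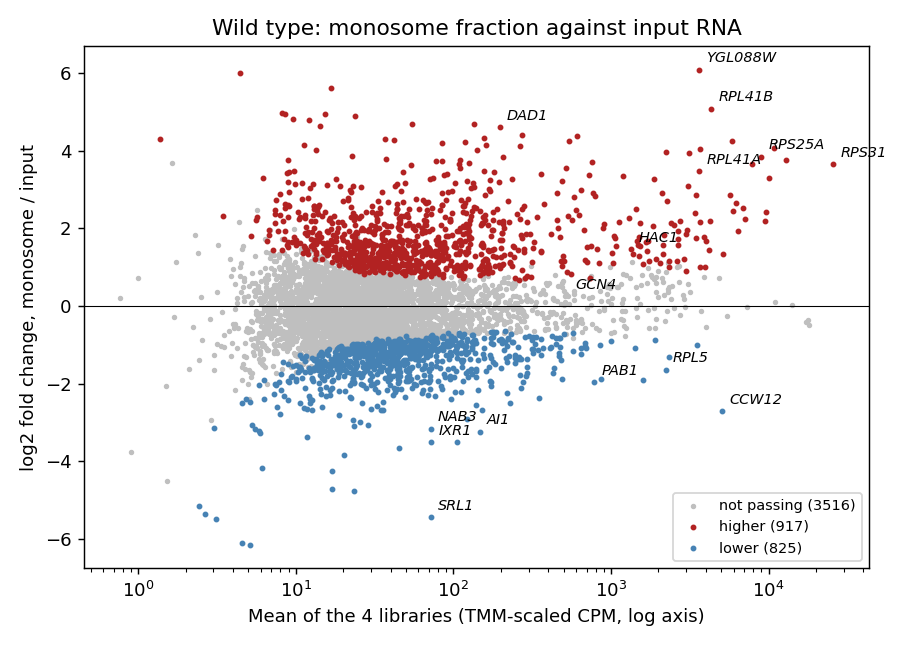
Log2 fold change of monosomes over input (vertical) against the mean of the 4 wild-type libraries in TMM-scaled CPM (horizontal, log axis), 1 point per gene tested. The 917 genes called higher (red) and the 825 called lower (blue) lie across the range of abundance, and the labelled genes are described in the text.

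The largest rises, taken over called genes that average 50 CPM or more and whose pools have no overlapping values, encode small proteins from many pathways. DAD1, a subunit of the DASH complex that couples kinetochores to microtubules, had 19.3 and 10.5 CPM in input and 392 and 366 in monosomes (log2 4.62 ± 0.43, adjusted p = 3.01e-08). WIP1, another small kinetochore protein, went from 4.46 and 3.15 CPM to 104 and 107 (log2 4.71 ± 0.52, adjusted p = 3.55e-07). For both genes the monosome replicates lie close together and far above input, which rests on few counts, 26 and 10 for DAD1 and 6 and 3 for WIP1. SPT4, a subunit of the Spt4-Spt5 elongation factor of RNA polymerase II, went from 14.1 and 4.20 CPM to 186 and 337 (log2 4.69 ± 0.62). TRX3, the mitochondrial thioredoxin, went from 17.8 and 10.5 CPM to 258 and 339 (log2 4.33 ± 0.49). These mRNAs encode proteins of 89 to 127 residues. ATG44, which is required for mitochondrial fission in mitophagy, rose by 4.41 ± 0.53, and DUT1, the dUTPase that keeps uracil out of DNA, by 4.38 ± 0.49. TMH11 rose by 4.25 ± 0.47 and RPS21A, a protein of the small ribosomal subunit, by 4.25 ± 0.53.

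The pools did not place these genes alike. DUT1 was at 366 and 311 CPM in light and at 2264 and 821 in heavy polysomes, so its heavy polysome libraries reach as high as those of monosomes (798 and 1528 CPM). DAD1 was at 87.2 and 82.5 CPM in light and 82.4 and 31.5 in heavy polysomes, below both of its monosome libraries. Against the mean of the polysome pools, DAD1 was higher in monosomes by 2.45 (adjusted p = 4.9e-06), while DUT1 differed by 0.68 and did not pass (adjusted p = 0.21). The largest rise of all, YGL088W (chrVII:345836-346201), had 107 and 102 CPM in input and 8531 and 5792 in monosomes (log2 6.10 ± 0.69, adjusted p = 3.55e-07). It was at 299 and 184 CPM in light and at 17680.5 and 3088 in heavy polysomes. Its log2 fold change over input was 6.63 ± 0.70 in heavy polysomes, so the rise was not particular to monosomes. Its row shares 216 bases with SNR10, a gene for a small nucleolar RNA on the same strand, so reads of the 2 genes cannot be told apart there.

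Across the transcriptome, the fold changes were ordered by the length of the encoded protein. Of 174 genes that encode 1 to 100 residues, 101 were higher in monosomes and 4 lower, with a median log2 fold change of 1.54. Of 672 genes with 101 to 200 residues, 257 were higher and 24 lower (median 0.71). The balance turned in the middle of the range: 339 of 1597 genes with 201 to 400 residues were higher and 176 lower (median 0.17), and 175 of 1906 genes with 401 to 800 residues were higher and 347 lower (median -0.24). Of 844 genes with over 800 residues, 15 were higher and 268 lower (median -0.69). Across 5193 genes, Spearman's rho between the log2 fold change and the number of residues was -0.451, as a description over genes that share the same 4 libraries. The cytosolic ribosomal proteins do not carry this order alone, since without them the medians of the 5 classes were 1.46, 0.62, 0.17, -0.24 and -0.69.

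Leaving out libraries changed these counts more than their order. Among genes of 1 to 100 residues the number higher was 78 to 87 with any 1 library left out. Among those of 101 to 200 residues it fell to 170 without input replicate 1. Among those over 800 residues the number lower fell to 155 without monosome replicate 1, 136 without monosome replicate 2 and 168 without input replicate 2. In the class of 401 to 800 residues it fell to 184 and 222 without monosome replicates 1 and 2, and in that of 201 to 400 residues the number higher fell to 207, 194 and 207 without monosome replicate 1, input replicate 1 and input replicate 2. The smaller counts moved as well. Of genes of 101 to 200 residues, 8 were lower without monosome replicate 1 and 12 without input replicate 1, and of those of 201 to 400 residues 78 and 107. Of genes of 401 to 800 residues 77, 87 and 73 were higher without monosome replicate 1, input replicate 1 and input replicate 2, and of those over 800 residues 2, 4 and 6. Without any 1 library, the median stayed between 1.43 and 1.73 in the shortest class and between -0.98 and -0.62 in the longest.

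The order held within levels of abundance, set by the input libraries of the deletion strains, which are not part of the comparison. In the lowest tertile, under 19.8 CPM, the medians ran from 1.84 in the shortest class over 0.78, 0.40 and -0.04 to -0.41 in the longest. In the highest tertile, above 49.9 CPM, they ran from 1.38 over 0.76, -0.05 and -0.40 to -0.80. The highest tertile lay below the lowest one in each of the 5 classes. Median GC content of the coding sequence in the shortest class was 41.4% in the 101 genes that were higher and 40% in the 69 that did not pass.

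**Figure D2:**
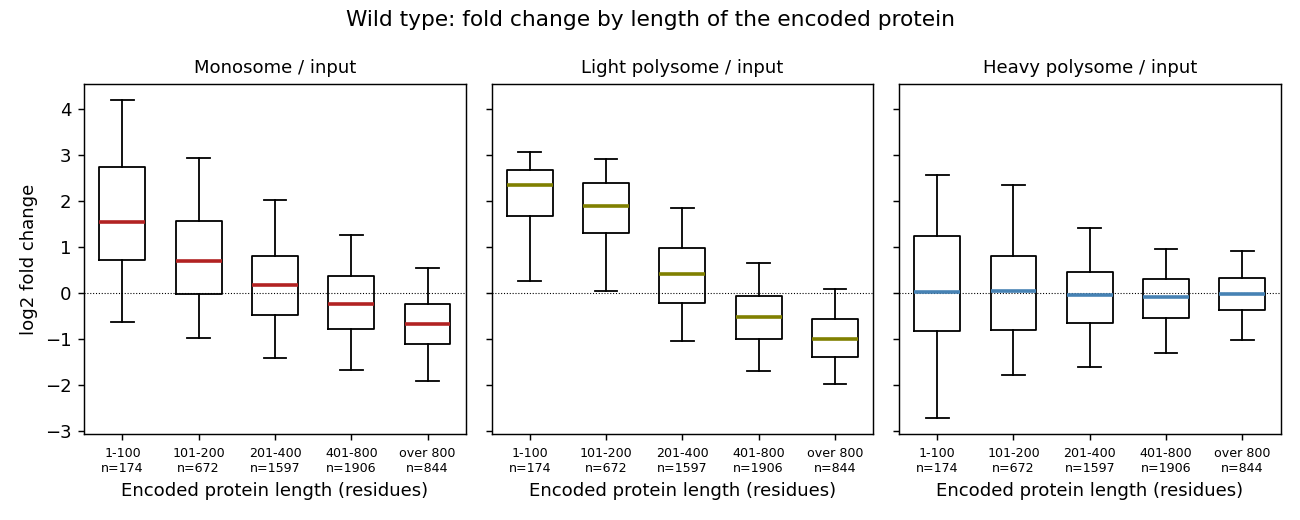
Log2 fold change against input of monosomes, light polysomes and heavy polysomes of wild type (vertical), by length of the encoded protein in residues (horizontal). Boxes give quartiles, the coloured line the median and whiskers the 5th to 95th percentile; the monosome medians descend from 1.54 to -0.69 and the light polysome medians from 2.35 to -1.01, while those of heavy polysomes lie between -0.09 and 0.04.

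The light polysomes of the same cells were ordered by length as well. Their medians against input, which use the same input libraries, were 2.35, 1.89, 0.41, -0.53 and -1.01 from the shortest to the longest class, and rho with length was -0.742. In heavy polysomes the medians were 0.01, 0.04, -0.05, -0.09 and -0.03, and rho was -0.015. Light polysomes differed from input at 1893 genes (36% of those tested) and heavy polysomes at 569 (10.8%). Of the 917 genes higher in monosomes, 509 were also called higher in light and 230 in heavy polysomes, which share the input libraries. Of the 825 lower, 403 and 83 were also called lower.

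Some called genes went against their length. They are named here after their values were seen. Of the 4 genes of at most 100 residues that were lower in monosomes, LSO2 encodes a ribosome-binding factor of stationary cells, and had 21.6 and 18.9 CPM in input and 3.17 and 5.96 in monosomes (log2 -2.41 ± 0.64, adjusted p = 0.00489). MIN9 fell by 1.33 ± 0.42 (adjusted p = 0.0161) and RRT15 by 2.60 ± 0.74 (adjusted p = 0.00791). YHR175W-A had 0 counts in both monosome libraries and 10 and 3 in input. Each of the 4 lost its call without at least 1 of the 4 libraries. Among the 15 genes over 800 residues that were higher, MNN4, which regulates the phosphorylation of mannose chains on glycoproteins, had 28.3 and 25.2 CPM in input and 82.5 and 92.3 in monosomes (log2 1.68 ± 0.32, adjusted p = 0.0002). FLO9, a flocculin of the cell surface, rose by 1.78 ± 0.41 (adjusted p = 0.00132). MNN4 and FLO9 were the only 2 of the 15 called in all 4 fits that left out 1 library. The other 13 had log2 fold changes of 0.84 (MIS1) to 1.64 (USO1), and SPC110, LHS1, ROT2 and FLO1 were called in 0 of those 4 fits.

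Ribosomal protein mRNAs, which are short and abundant, were the largest block of rises among the gene lists. Of 78 genes for large-subunit proteins, 37 were higher in monosomes (47.4%), 2 were lower (2.56%) and the median log2 fold change was 1.07. Of 56 genes for small-subunit proteins, 35 were higher (62.5%), 0 lower and the median was 1.16. Over all genes tested, 17.4% were higher and 15.7% lower. With any 1 library left out, 30 to 34 of the large subunit were higher and 1 was lower. That of the small subunit was 28 without monosome replicate 1, and fell to 20 without monosome replicate 2, 21 without input replicate 1 and 19 without input replicate 2. Adjusted p-values here are over all genes tested. In light polysomes, against the same input libraries, both lists had higher medians, 2.35 for the large and 2.53 for the small subunit. The rise over input was thus not particular to monosomes.

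RPS25A, a small-subunit protein of 108 residues, had 1103 and 1229 CPM in input and 14894 and 18824 in monosomes (log2 3.85 ± 0.51, adjusted p = 2.18e-06). Its paralog RPS25B, named after its values were seen, had 469.9 and 459 CPM in input and 1414 and 1861 in monosomes (log2 1.81 ± 0.42, adjusted p = 0.00157). The monosome libraries lie above the input libraries for both, and further above for RPS25A; the difference between paralogs was not tested. RPS21A and RPS21B showed a like pair of values, 4.25 ± 0.53 and 1.68 ± 0.44. In light polysomes RPS25B stood at 4032 and 3166 CPM and RPS21B at 6753 and 5317, above their monosome libraries. RPS25A, at 9709 and 8971 CPM there, and RPS21A, at 5171 and 3458, stood below theirs. RPS31, which is made as a fusion to ubiquitin, had 3831 and 3658 CPM in input and 40132 and 55194 in monosomes (log2 3.67 ± 0.57, adjusted p = 1.79e-05), and RPS28A rose by 3.09 ± 0.47. In the large subunit, RPL43B rose by 4.05 ± 0.52, RPL28, the protein whose mutation gives cycloheximide resistance, by 3.97 ± 0.54, and RPL29 by 3.94 ± 0.52.

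The ribosomal protein genes did not move as 1 group. RPS29A and RPS29B, with 56 residues among the shortest, were at 329 and 316 CPM and at 645 and 665 CPM in input, and at 569 and 753 and at 1384 and 1456 CPM in monosomes. Their log2 fold changes of 1.03 ± 0.39 and 1.12 ± 0.36 passed (adjusted p = 0.0428 and 0.0185), but neither was called without any 1 of the 4 libraries, with adjusted p up to 0.21 for RPS29A without monosome replicate 2 and 0.1 for RPS29B without input replicate 1. RPL5, which binds 5S rRNA before assembly and is among the longer ribosomal proteins with 297 residues, went the other way. It had 3680.2 and 3078 CPM in input and 1171 and 992 in monosomes, and fell by 1.64 ± 0.36 on the log2 scale (adjusted p = 0.000943). RPP0, the base of the stalk, had a log2 fold change of -0.57 ± 0.32 that did not pass (adjusted p = 0.17). RPL5, RPP0 and both RPS29 genes were also named after their values were seen.

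Of the paralogs that name the series, RPL22B had 154 and 130.4 CPM in input and 292 and 334 in monosomes. Its log2 fold change of 1.13 ± 0.30 passed (adjusted p = 0.00494), but not without input replicate 2 (adjusted p = 0.0654). RPL22A was below the filter on low counts, with 3 and 5 counts in input and 9 and 1 in monosomes, and gave no test.

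**Figure D3:**
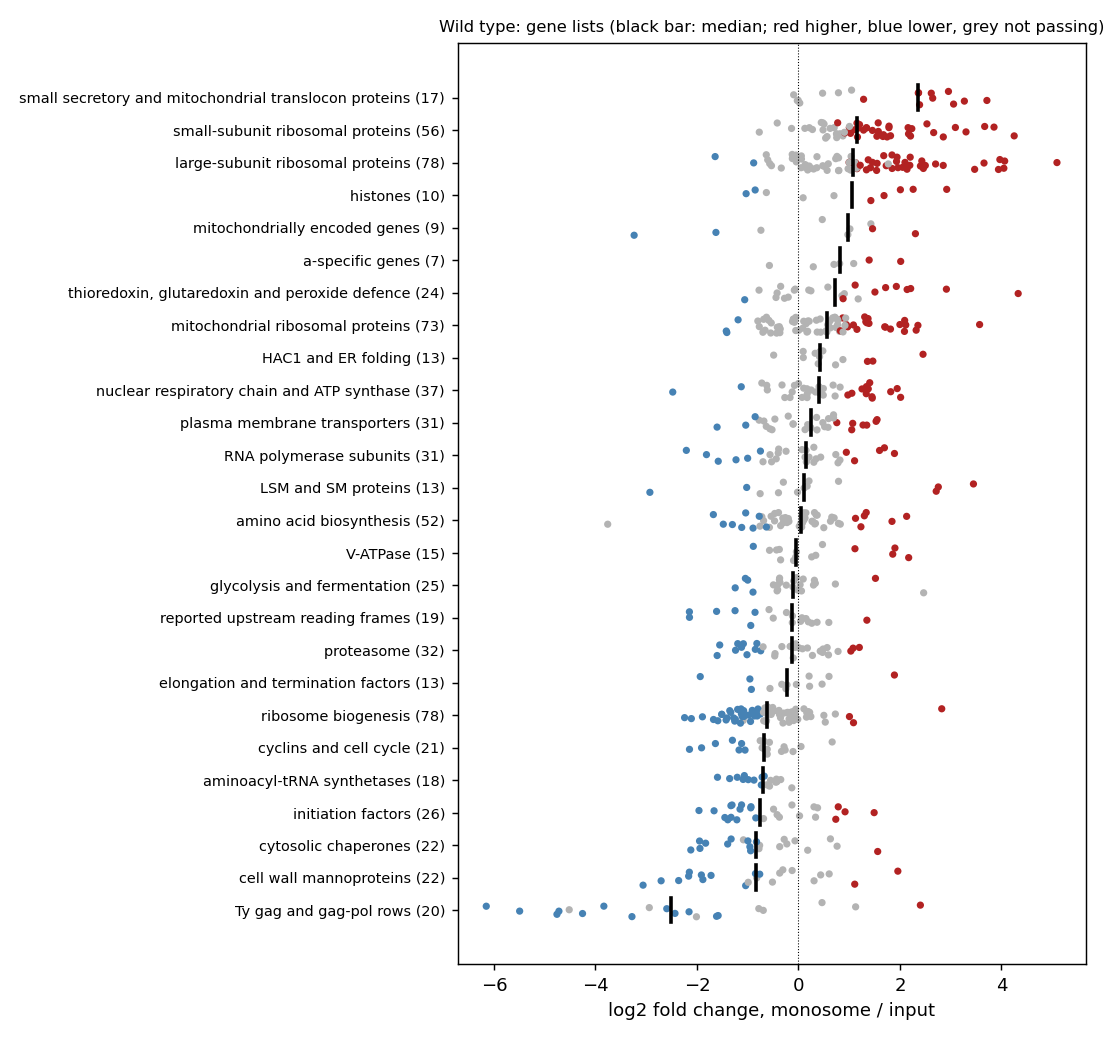
Log2 fold change of monosomes over input in wild type (horizontal) for each tested member of the gene lists (rows, tested members in parentheses), ordered by median (black bar), with genes called higher in red, called lower in blue and others in grey. The translocon list, both lists of cytosolic ribosomal proteins and the histone list have medians above 1. The lists of synthetases, initiation factors, chaperones and cell wall proteins lie between -0.70 and -0.83. The Ty list was added after the data were seen.

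The proteins of the mitochondrial ribosome are encoded in the nucleus and imported. Among their genes 28.8% were higher and 4.11% lower, against 17.4% and 15.7% over all genes tested. Of 73 genes tested, 21 were higher and 3 lower, with a median of 0.56, and 12 were higher without input replicate 1 and 0 lower without monosome replicate 1. MRPS12, the counterpart of a conserved protein of the decoding centre, had 78.1 and 83.0 CPM in input and 825 and 1096 in monosomes (log2 3.57 ± 0.40, adjusted p = 3.55e-07). MRPL39 rose by 2.35 ± 0.43 (adjusted p = 0.000125). MRPL15 had 12.6 and 19.97 CPM in input, 78.1 and 83.4 in monosomes, 33.9 and 25.4 in light and 16.1 and 16.7 in heavy polysomes. Its monosome libraries were thus above the other 6 of the strain (log2 2.32 ± 0.35 over input).

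The small subunits of protein translocation had the highest median of all lists. Among their genes 58.8% were higher, against 17.4% over all genes tested. Of 17 genes for translocon, signal peptidase and mitochondrial import subunits, 10 were higher and 0 lower, with a median of 2.36, and 9 or 10 were higher with any 1 library left out. SBH2, a subunit of a translocon of the endoplasmic reticulum, had 103 and 112 CPM in input and 906 and 1933 in monosomes (log2 3.71 ± 0.45, adjusted p = 8.24e-07). TOM6 and TOM5, small subunits of the translocase of the outer mitochondrial membrane, rose by 3.27 ± 0.47 and 2.36 ± 0.32. TOM5 stood at 81.0 and 84.1 CPM in input, 439.8 and 408 in monosomes, 313 and 298 in light and 44.2 and 35.2 in heavy polysomes. Like OST4, TOM5 was highest in monosomes and lowest in heavy polysomes, and both were higher in monosomes than in the mean of the polysome pools, by 1.95 and 2.51 (adjusted p = 1.5e-05 and 6.8e-06).

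Of 24 genes of thioredoxins, glutaredoxins and peroxide defence, 9 were higher and 1 lower (median 0.72). These were 37.5% and 4.17%, against 17.4% and 15.7% over all genes tested. The number lower was 0 without monosome replicate 2, input replicate 1 or input replicate 2, and 0 with DESeq2. TRX2 and TRX1, the cytosolic thioredoxins, rose by 2.92 ± 0.44 and 2.21 ± 0.43, and SOD1, the copper-zinc superoxide dismutase, by 2.14 ± 0.41. In light polysomes these 3 genes rose over the same input libraries by 2.86, 2.96 and 2.27, so their rises were not particular to monosomes. Against the mean of the polysome pools, 8 of the 24 genes were lower in monosomes and 1 higher. Over all genes tested, 7.06% were lower and 8.46% higher in that contrast. Of 37 nuclear genes of the respiratory chain and ATP synthase, 12 were higher and 2 lower (median 0.40), with 7, 4 and 5 higher without monosome replicate 2, input replicate 1 and input replicate 2, and 1 lower without monosome replicate 1. In that list 32.4% were higher and 5.41% lower, against 17.4% and 15.7% over all genes tested. Without input replicate 1, its share higher was near that of all genes in the same fit. Its median over input in light polysomes was 2.17. The ATP synthase genes ATP17, ATP18 and ATP16 rose by 2.01, 1.95 and 1.82 in monosomes and by 2.94, 2.68 and 2.17 in light polysomes. QCR6, an acidic subunit of the bc1 complex with 147 residues, fell from 68.4 and 55.7 CPM to 12.7 and 5.96 (log2 -2.48 ± 0.41, adjusted p = 3.55e-05).

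Histone and splicing genes split within their lists. Of 10 histone genes 5 were higher (50%) and 2 lower (20%), with a median of 1.06. HTA1, which encodes H2A, had 473 and 502 CPM in input and 2832 and 4568 in monosomes (log2 2.92 ± 0.51, adjusted p = 8.04e-05). HTA2, HHT1 and HHT2 also rose, by 2.01, 2.26 and 1.69; the count of 5 was reached with each library left out, and that of 2 lower became 0 without monosome replicate 1 and 1 without monosome replicate 2 or input replicate 2. Of 13 tested LSM and SM genes, which form the rings around small RNAs, SMX3, SMX2 and LSM6 rose by 3.45 ± 0.43, 2.76 ± 0.51 and 2.71 ± 0.45. These were 23.1% of the list, and 2 genes were lower (15.4%), against 17.4% and 15.7% over all genes tested. LSM4, a member with a long tail rich in asparagine, fell from 40.9 and 41.0 CPM to 5.08 and 5.96 (log2 -2.93 ± 0.49, adjusted p = 4.27e-05).

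Genes of the V-ATPase, the RNA polymerases and the proteasome passed in both directions. Over all genes tested, 17.4% were higher and 15.7% lower. Of 15 V-ATPase genes 4 were higher (26.7%) and 1 lower (6.67%), with a median of -0.04. The 4 were the proteolipid subunits VMA16, VMA11 and VMA3 and the small subunit VMA9. VMA3 (log2 1.11 ± 0.38, adjusted p = 0.0241) did not pass without any 1 of the 4 libraries, with adjusted p up to 0.135, so that 3 were higher in each of those fits, and 0 lower. Of 31 RNA polymerase subunit genes 5 were higher (16.1%) and 6 lower (19.4%), near the shares over all genes, with a median of 0.15. The small subunits RPB11 and RPB9 rose by 1.89 and 1.69, while RPO21, the largest subunit of RNA polymerase II with 1733 residues, fell by 1.58 ± 0.28 (adjusted p = 9.47e-05). Without input replicate 1, 3 of the list were higher, and without input replicate 2, 2 were. Of 32 proteasome genes 3 were higher (9.38%) and 10 lower (31.2%), with a median of -0.12. RPT2, an ATPase of the base, fell by 1.60 ± 0.29; without monosome replicates 1 and 2 the count lower was 6 and 5.

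Of 31 plasma membrane transporter genes 7 were higher (22.6%, against 17.4% over all genes tested) and 3 lower (9.68%, against 15.7%), with a median of 0.24. FTR1, the iron permease, had 119.7 and 123 CPM in input and 327 and 387 in monosomes (log2 1.55 ± 0.27, adjusted p = 8.09e-05). HXT3, a glucose transporter with 567 residues, had 364 and 358 CPM in input and 1051 and 1036 in monosomes (log2 1.53 ± 0.32, adjusted p = 0.000617). In both cases the replicates of a pool are nearly equal. TAT1, an amino acid permease, rose by 1.35 ± 0.26, but its row overlaps an antisense RNA gene (TBRT) over 1824 bases, and the labels do not say whether the counting used strand. SNQ2, a drug exporter of 1501 residues, fell by 1.60 ± 0.31. The count of 7 was 3 without monosome replicate 1 and without input replicate 2, and the count of 3 lower was 1 without monosome replicate 2. PMA1, the proton pump, had 1770.2 and 1604 CPM in input and 2322 and 1998 in monosomes, which did not pass (log2 0.36 ± 0.29, adjusted p = 0.359; named after its values were seen).

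Among a-specific genes, STE2, the receptor for α-factor with 431 residues, was higher together with MFA2. It had 158 and 150.3 CPM in input, 391 and 423 in monosomes, 184 in both light polysome libraries and 267 and 119 in heavy polysomes. Its monosome libraries lie above the other 6 of the strain (log2 1.39 ± 0.29 over input, adjusted p = 0.000593). Of the 7 genes of the list 2 were higher (28.6%, against 17.4% over all genes tested) and 0 lower. A fit of the input and monosome libraries of wild type alone, and one without the 4 libraries closest to another pool, each called 4 of 7 higher, and a fit of the wild-type libraries 4 of the 6 tested. BAR1, the protease that degrades α-factor, did not pass (log2 0.81 ± 0.33, adjusted p = 0.0602).

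HAC1, the transcription factor of the unfolded protein response, whose unspliced mRNA is known to carry stalled ribosomes on polysomes, had 693 and 731 CPM in input and 1868 and 2067 in monosomes. It was higher in monosomes by 1.47 ± 0.37 (adjusted p = 0.00307). It stood at 1065 and 1009 CPM in light and at 3645 and 1608 in heavy polysomes, so that its heavy polysome replicates differ from each other more than its monosome replicates do. Of 13 genes of HAC1 and folding in the endoplasmic reticulum, 3 were higher (23.1%, against 17.4% over all genes tested) and 0 lower. FPR2, a peptidyl-prolyl isomerase, rose by 2.45 ± 0.43. LHS1, a chaperone of the lumen with 881 residues, rose by 1.36 ± 0.44 (adjusted p = 0.0181), but was not called without any 1 of the 4 libraries, with adjusted p up to 0.106 without input replicate 2.

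The mRNAs with reported upstream reading frames were not higher as a list. In it 5.26% were higher and 31.6% lower, against 17.4% and 15.7% over all genes tested. GCN4, whose leader holds the best studied set of such frames in yeast, had 466 and 508 CPM in input and 665 and 497 in monosomes, so that the pools overlap (log2 0.26 ± 0.28, adjusted p = 0.496). It had 319.6 and 343 CPM in light and 137 and 228 in heavy polysomes. Against the mean of the polysome pools GCN4 was higher in monosomes, by 1.25 (adjusted p = 0.00065), its monosome libraries lying above all 4 polysome libraries. CPA1, which carries the arginine attenuator peptide in its leader, had 74.3 and 89.4 CPM in input and 67.9 and 71.5 in monosomes (log2 -0.24 ± 0.28, adjusted p = 0.54). Of 19 tested genes of the list 1 was higher and 6 lower, with a median of -0.12, near that of all genes, and 3 were lower without monosome replicate 2. SCO1, a copper chaperone of cytochrome oxidase, rose by 1.35 ± 0.35, but not without input replicate 1 (adjusted p = 0.0623). SCH9, a kinase of nutrient signalling, fell by 2.15 ± 0.35 and CLN3, the first G1 cyclin, by 2.15 ± 0.44.

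**Figure D4:**
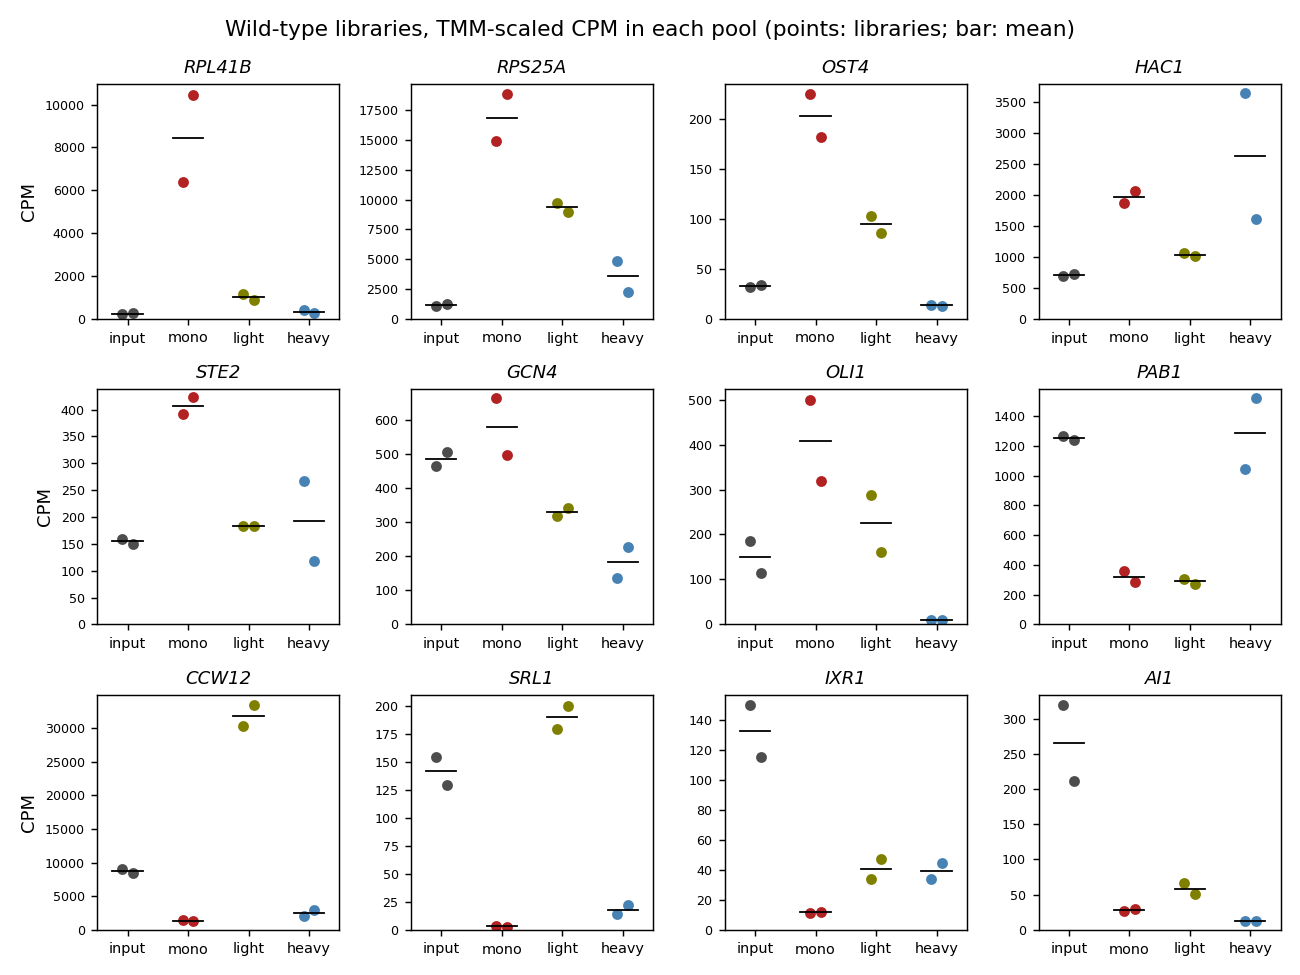
TMM-scaled CPM (vertical, linear axes that differ between panels) of 12 genes in the 8 wild-type libraries, by pool (horizontal); points are libraries and bars the means of 2. RPL41B, RPS25A, OST4 and OLI1 are highest in monosomes, CCW12 and SRL1 are high in light polysomes and low in monosomes, and PAB1 is as high in heavy polysomes as in input.

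The 10 largest falls, taken by the same rule as the rises, include the cell wall genes SRL1, CCW12 and FIT3 and the genes for the RNA-binding proteins NAB3, SBP1 and BFR1. SRL1, a mannoprotein of the cell wall, had 154 and 129 CPM in input and 3.17 and 2.98 in monosomes, the latter from 5 and 1 counts (log2 -5.44 ± 0.52, adjusted p = 3.06e-08). It was at 179 and 199.8 CPM in light and at 14.1 and 22.2 in heavy polysomes. CCW12, whose sequence is given above, had 9058 and 8513 CPM in input and 1425 and 1266 in monosomes (log2 -2.71 ± 0.40, adjusted p = 8.57e-06). It stood at 30288 and 33327 CPM in light and 2117 and 2878 in heavy polysomes, so for both genes the light polysome libraries are the highest of the 8. FIT3, a cell wall protein of iron uptake, had 339 and 438 CPM in input, 64.7 and 74.5 in monosomes and 612 and 1085 in light polysomes (log2 -2.50 ± 0.36 over input). YNL190W fell by 3.51 ± 0.53.

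IXR1 and NAB3 were below input in every library of the other pools. IXR1, a DNA-binding repressor of hypoxic genes, had 150.2 and 116 CPM in input, 11.4 and 11.9 in monosomes, 33.9 and 47.6 in light and 34.2 and 44.5 in heavy polysomes (log2 -3.51 ± 0.40 for monosomes, adjusted p = 4.23e-07). NAB3, which binds nascent transcripts and directs their termination, had 127 and 132 CPM in input, 15.2 and 11.9 in monosomes, 32.3 and 28.5 in light and 36.2 and 74.1 in heavy polysomes (log2 -3.16 ± 0.40 for monosomes, adjusted p = 1.73e-06). SBP1, a repressor of translation found in P bodies, had 225 and 204 CPM in input and 26.7 and 32.8 in monosomes (log2 -2.90 ± 0.42, adjusted p = 6.21e-06). In heavy polysomes SBP1 was at 84.5 and 237 CPM, which overlaps its input. BFR1, which binds mRNA on polysomes, fell by 2.56 ± 0.41 and BMH2, a 14-3-3 protein, by 2.69 ± 0.37.

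Of 22 genes for cell wall mannoproteins, 11 were lower and 2 higher, with a median of -0.83. These were 50% and 9.09%, against 15.7% and 17.4% over all genes tested. Without monosome replicate 1 and without input replicate 1 the number lower was 7, and 1 was higher without monosome replicate 1, monosome replicate 2 or input replicate 1. TIR1 had 214 and 250.2 CPM in input, 45.7 and 62.5 in monosomes and 349 and 638 in light polysomes (log2 -2.16 ± 0.33 over input). HSP150 fell by 1.88 ± 0.30. UTR2, an enzyme that links chitin to glucan, went the other way, from 300.4 and 250.2 CPM to 1097 and 1045 (log2 1.96 ± 0.30, adjusted p = 1.47e-05).

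Genes of the translation machinery outside the ribosome were more often lower than higher. Among initiation factor genes 50% were lower and 15.4% higher, against 15.7% and 17.4% over all genes tested. Of 26 initiation factor genes 13 were lower and 4 higher, with a median of -0.76, and 8 were lower without monosome replicate 2. PAB1, the poly(A)-binding protein, had 1263 and 1241 CPM in input, 356 and 283 in monosomes, 307 and 273 in light and 1048 and 1519 in heavy polysomes (log2 -1.96 ± 0.30, adjusted p = 1.21e-05). FUN12, GCD11 and TIF3, which encode eIF5B, the γ subunit of eIF2 and eIF4B, had log2 fold changes of -1.33, -1.31 and -1.21. SUI1, which encodes eIF1 and has 108 residues, had 164 and 171 CPM in input and 341 and 613 in monosomes (log2 1.49 ± 0.40, adjusted p = 0.00541), and did not pass without monosome replicate 2 (adjusted p = 0.105). It was named after its values were seen, and the 4 factors higher were 1, 0, 2 and 1 without monosome replicate 1, monosome replicate 2, input replicate 1 and input replicate 2.

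Of 18 genes for cytosolic aminoacyl-tRNA synthetases 10 were lower and 0 higher, with a median of -0.70, and 6 without monosome replicate 2. Of the synthetase list 55.6% were lower, against 15.7% over all genes tested. KRS1, the lysyl-tRNA synthetase, had 688 and 627 CPM in input and 267 and 158 in monosomes (log2 -1.60 ± 0.28, adjusted p = 9.58e-05). SES1, FRS2 and DPS1, which charge serine, phenylalanine and aspartate tRNA, had log2 fold changes of -1.36, -1.21 and -1.09. In the list of elongation and termination factors, 23.1% were lower and 7.69% higher, against 15.7% and 17.4% over all genes tested. Of 13 elongation and termination factor genes 3 were lower and 1 higher, and 1 was lower without monosome replicate 2. SUP35, the release factor eRF3, fell by 1.94 ± 0.32 and SUP45, eRF1, by 0.96 ± 0.26 (adjusted p = 0.00581, and 0.0739 without monosome replicate 2). RLI1, the ribosome recycling factor, fell by 0.93 ± 0.27, and lost its call without monosome replicate 2 and without input replicate 1 (adjusted p = 0.0788 and 0.0978). ANB1, the anaerobic form of eIF5A with 157 residues, rose by 1.89 ± 0.36.

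Of 22 cytosolic chaperone genes 10 were lower and 1 higher, with a median of -0.83, and 6 were lower without monosome replicate 2. In that list 45.5% were lower and 4.55% higher, against 15.7% and 17.4% over all genes tested. YDJ1, an Hsp40, had 406 and 461 CPM in input and 98.4 and 101 in monosomes (log2 -2.12 ± 0.31, adjusted p = 9.78e-06). STI1, SBA1 and SIS1, cochaperones of Hsp90 and Hsp70, had log2 fold changes of -1.95, -1.94 and -1.83. SSB1, the ribosome-associated Hsp70, was at 2264 and 1962 CPM in input and 3657 and 2879.7 in monosomes, which did not pass (log2 0.63 ± 0.34, adjusted p = 0.154; named after its values were seen).

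Ribosome biogenesis genes were among the lower lists, with 31 of 78 lower, 3 higher and a median of -0.62. These were 39.7% and 3.85%, against 15.7% and 17.4% over all genes tested. The number lower was 18, 17 and 19 without monosome replicate 1, monosome replicate 2 and input replicate 1, and 1 was higher without monosome replicate 1 or input replicate 2. NOP1, the methyltransferase fibrillarin, had 860.2 and 684 CPM in input and 235 and 176 in monosomes (log2 -1.89 ± 0.27, adjusted p = 6.2e-06). UTP22, LSG1 and NOP7 had log2 fold changes of -2.24, -2.11 and -1.67. Of 21 cyclin and cell cycle genes 7 were lower and 0 higher (median -0.68), with 3 without monosome replicate 1 and 4 without input replicate 2. Of the cyclin and cell cycle list 33.3% were lower, against 15.7% over all genes tested. CLN2, a G1 cyclin, fell by 1.91 ± 0.35 and CDC5, the polo kinase, by 1.64 ± 0.35.

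Metabolic enzymes stayed near the median of all genes. In the glycolysis and fermentation list 4% were higher and 16% lower, and in the amino acid biosynthesis list 11.5% and 15.4%. The shares over all genes tested were 17.4% and 15.7%. Of 25 glycolysis and fermentation genes 1 was higher and 4 lower (median -0.11), and of 52 amino acid biosynthesis genes 6 were higher and 8 lower (median 0.06), with 3 higher and 5 lower without monosome replicate 1 and 5 lower without input replicate 2. PFK1, a subunit of phosphofructokinase, fell by 1.25 ± 0.26. CDC19, pyruvate kinase, had 5025 and 4301 CPM in input and 2414 and 2248 in monosomes (log2 -1.0 ± 0.35, adjusted p = 0.027), and did not pass without monosome replicate 1, monosome replicate 2 or input replicate 1, with adjusted p up to 0.125. The 4 glycolysis genes lower were 2, 1 and 2 without those same libraries.

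Transcripts of the mitochondrial genome are translated by mitochondrial ribosomes, which are not the ribosomes of the cytosol, and 9 of 22 listed rows were tested. COX2, a subunit of cytochrome oxidase, had 34.9 and 25.2 CPM in input and 179 and 113 in monosomes (log2 2.30 ± 0.45, adjusted p = 0.000241). OLI1, the proteolipid subunit of the ATP synthase with 76 residues, had 186 and 114 CPM in input, 499 and 319 in monosomes and 10.1 and 9.26 in heavy polysomes. Its log2 fold change of 1.46 ± 0.40 over input passed (adjusted p = 0.00556), but not without monosome replicate 1 (adjusted p = 0.118) or input replicate 2 (adjusted p = 0.0878). The intron-encoded maturase row AI1 went the other way, from 319 and 211 CPM in input to 27.3 and 29.8 in monosomes (log2 -3.24 ± 0.34, adjusted p = 1.83e-07). AI1 lies within the span of COX1 and shares its first exons with the other intron rows, and COX1 itself, at 14.9 and 9.46 CPM in input and 27.3 and 17.9 in monosomes, did not pass (adjusted p = 0.0846). SCEI, an endonuclease row inside the gene of the large mitochondrial rRNA, fell by 1.63 ± 0.53 (adjusted p = 0.0184), and not without monosome replicate 1 (adjusted p = 0.211) or input replicate 1 (adjusted p = 0.0528).

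The same comparison in the deletion strains uses other libraries and gives a second reading of the wild-type calls. ∆RPL22B differed between monosomes and input at 1644 genes (31.3%), of which 920 were higher (17.5%) and 724 lower (13.8%). ∆RPL22A differed at 827 (15.7%), 410 higher (7.8%) and 417 lower (7.93%). Of the 917 genes higher in wild type, 730 were also called higher in ∆RPL22B (79.6% of the wild-type calls and 79.3% of those of ∆RPL22B) and 365 in ∆RPL22A (39.8% and 89%). Of the 825 lower, 525 were called lower in ∆RPL22B (63.6% and 72.5%) and 281 in ∆RPL22A (34.1% and 67.4%). In the other direction, 1 gene lower in wild type was called higher in ∆RPL22B. In all, 354 genes were called higher and 245 lower in all 3 strains. Across 5258 genes, rho with the wild-type log2 fold changes was 0.864 for ∆RPL22B and 0.713 for ∆RPL22A.

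**Figure D5:**
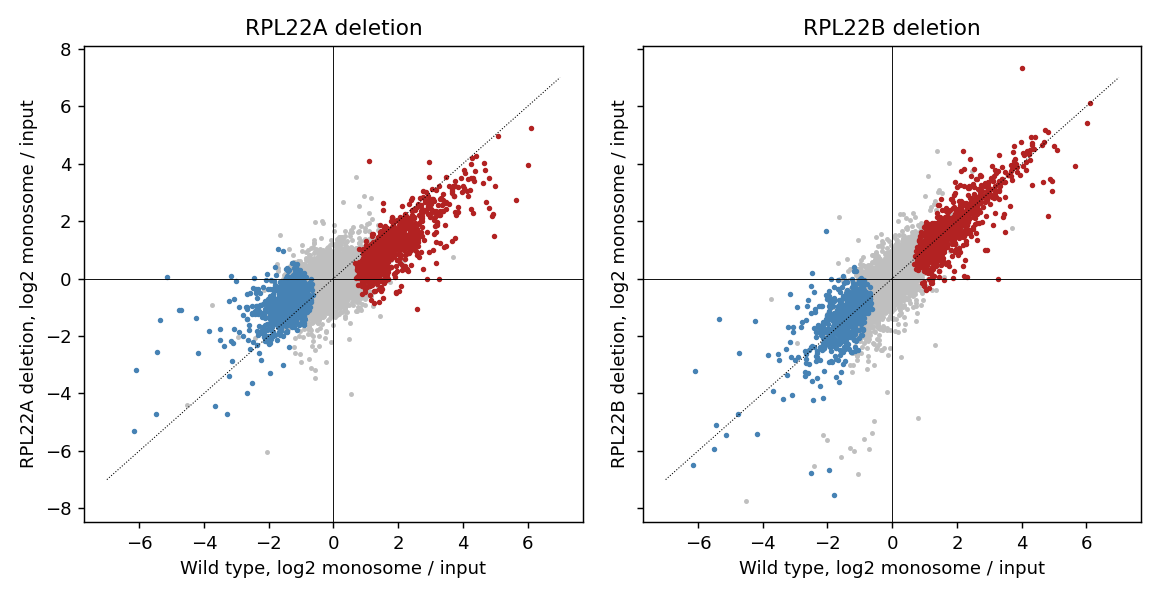
Log2 fold change of monosomes over input in ∆RPL22A (left) and ∆RPL22B (right) against that in wild type (horizontal), 1 point per gene tested, coloured by the wild-type call (red higher, blue lower, grey not passing); the dotted line marks equal values. Of the 917 red points 864 lie above 0 in ∆RPL22A and 904 in ∆RPL22B.

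The genes at the extremes were read in the other strains as well. RPL41B was higher by 4.98 in ∆RPL22A and 4.48 in ∆RPL22B, DAD1 by 3.32 and 4.66, and AI1 had log2 fold changes of -3.39 and -3.36. CCW12 had a log2 fold change of -3.24 in ∆RPL22B (adjusted p = 1e-06), and one of -0.99 in ∆RPL22A that did not pass (adjusted p = 0.071). BFR1 had a log2 fold change of -2.49 in ∆RPL22B and one of -0.51 in ∆RPL22A that did not pass. SRL1 had log2 fold changes of -2.55 and -5.10. The difference between strains was tested as an interaction in edgeR, and 0 genes passed for either deletion, with 419 genes at an unadjusted p under 0.05 for ∆RPL22A (7.97%) and 88 for ∆RPL22B (1.67%). DESeq2 called 0 for both, and edgeR with no low-count filter 9 for ∆RPL22A. In the main fit, no strain difference in the monosome to input ratio was therefore called for single genes at this depth, including those whose fold changes stand apart above. Alternative fits that called some genes for ∆RPL22A are given in the closing section. The a-factor genes give no such comparison, since MFA1 had 4 and 3 counts and MFA2 8 and 4 over the 8 libraries of each deletion strain.

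Against the mean of light and heavy polysomes of the same strain, a contrast added after the data were seen that shares the monosome libraries, 816 genes passed (15.5%), 445 higher in monosomes (8.46%) and 371 lower (7.06%). Of the 917 genes higher in monosomes than in input, 342 were also higher here, and 199 of the 825 lower were also lower. From the shortest to the longest length class the medians were 0.56, -0.19, 0.01, 0.06 and -0.17, not the steady fall seen against input. Of 672 genes with 101 to 200 residues, 45 were higher and 75 lower than in polysomes. Ribosomal proteins stood near the middle here, with medians of -0.14 for the large and -0.18 for the small subunit, while the small translocon subunits had a median of 0.52. Of the 7 a-specific genes 4 were higher in monosomes than in polysomes and 0 lower. MFA1 was higher by 1.76 (adjusted p = 0.00023), with 22.1 and 13.0 CPM in heavy polysomes. Of 32 proteasome genes 12 were lower and 0 higher, with PRE1, a β-type subunit of the core, at 47.0 and 26.8 CPM in monosomes and 284 and 406 in light polysomes. Of 22 cell wall genes 10 were lower and 1 higher.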

How the data were processed

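The deposited table holds whole-number counts of reads per gene, which the authors made from sequenced libraries of polyA RNA, per the labels; reads of 2 lanes with the same barcode were merged, per the series design. The submitters' processing notes list the build sacCer3 and the tools RSEM 1.2.18, SAMtools 0.1.19 and cutadapt 1.4, without saying what each did. Which of them made the counts, the treatment of reads that match several genes, and strand are not given in the sources used here. Of 6369 rows, 5908 matched the R64 annotation by systematic name, and 0 columns were left unassigned. All 7 rows at the ribosomal DNA were removed before library sizes were taken.

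Tests used edgeR 4.0.16 (R 4.3.3): filterByExpr (minimum count 10, minimum total 15; 5258 genes), TMM scaling, 1 mean for each of 12 groups over all 24 libraries, the quasi-likelihood F-test, and Benjamini-Hochberg adjustment over all genes tested at 0.05. The spread is thus shared by all groups. The standard error of a log2 fold change is its size over the square root of its F statistic. Scaling assumes that most genes keep their share between pools. Duplicates differed by more than sampling noise (chi-square per degree of freedom 1.99 in input, 4.47 in monosomes), so each library is 1 replicate. DESeq2 1.42.0 and the alternatives in the closing section were run for comparison, and the procedure was tested on simulated data.

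The genes, gene lists and contrast were chosen with earlier results of these data known. The named genes are, of the called genes that average 50 CPM or more with no overlap between pools, up to 10 with the greatest rise and 10 with the greatest fall, then up to 4 members of each list with the smallest adjusted p, and 7 genes chosen by name; the exceptions are stated. Of the listed names, HYP2, ARG5,6 and LEU2 matched no row.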

Additional observations from a re-analysis of the deposited data

Results flagged for a closer look

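Within the counts at the ribosomal DNA, which no comparison uses, 1 row stood apart in the monosome libraries. YLR154W-E held 90.2% of the ribosomal DNA counts in wild-type monosome replicate 1 and 95.7% in replicate 2, against 6.02% and 6.24% in the input replicates. It held 65.4% and 57.0% in the heavy polysomes of wild type and 8.02% and 6.04% in the light ones. A high share of this row was thus not particular to monosomes. The rows at the locus together took 83.4% and 95.9% of all counts of the monosome libraries. The cause was not tested.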

How the results depend on the processing

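With 1 library left out, the number of genes called between wild-type monosomes and input ranged from 1021 to 1209 (1742 in all libraries), with 555 to 703 higher and 427 to 573 lower. Relative log expression scaling gave 1709 calls, TMM without ribosomal protein and mitochondrial genes 1746, the ribosomal DNA rows kept 1656, no low-count filter 1831, only the compared groups 2116, only the wild-type libraries 1784, DESeq2 1395 and the removal of the 4 libraries closest to another pool, an alternative added after the data were seen, 2329. None of these counts with all 4 libraries moved by over 1.5 times, and the share of higher calls was 49.6% to 58.2% in them, against 52.6%. The interaction with ∆RPL22A gave 9 calls with no low-count filter and 2 without those 4 libraries, against 0. Replicate numbers were not shown to pair the samples (correlation of deviations between input and monosomes -0.0056), and a replicate block gave 1656 calls. Of the alternatives over named genes, 1667 kept direction and call, 24 gained the call, 36 lost it and 0 changed direction; 105 of 121 called genes were called without any 1 library. Monosome replicate 2 has 385464 counts outside the ribosomal DNA, which limits genes of low counts most.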

Other observations

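Rows that the text above does not describe also differed between the pools, and those that were tested are among the 5258 genes counted above. They were chosen after their values were seen. The 47 rows of Ty gag and gag-pol genes, the reading frames of yeast retrotransposons, held 403 and 411 counts in input and 236 and 46 in monosomes. That is 0.0452% and 0.0672% of the counts outside the ribosomal DNA in input and 0.0152% and 0.0119% in monosomes, so the pools do not overlap. Light polysomes held 70 and 35 counts and heavy polysomes 127 and 393. Of the 20 rows tested 12 were lower and 1 higher in monosomes than in input, with a median log2 fold change of -2.51, and 4 were lower without monosome replicate 1. Of the tested rows 60% were lower and 5% higher, against 15.7% and 17.4% over all genes tested. The rows are near-identical copies, so their counts are not independent of each other.

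Of 65 tested rows with no entry in the R64 annotation, 30 were higher in monosomes, 6 were lower and the median log2 fold change was 1.14, against 17.4% higher and 15.7% lower over all genes tested. Without input replicate 1, 19 were higher, without input replicate 2, 20 were, and without monosome replicate 1, 0 were lower.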
